A study of Mus musculus with 6 samples.

Results

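The replication-dependent histone genes were examined in hearts of *Trdn-as*-deficient (KO) and wild-type (WT) mice. They were taken as every row of the deposited table whose symbol begins with Hist1h, Hist2h, Hist3h or Hist4h, which gave 46 of the 21776 genes listed, 45 of them protein coding and 1, *Hist1h2al*, a processed pseudogene. *Trdn-as* is a cardiac non-coding transcript that runs against the direction of the triadin gene, and the KO mice carry on both alleles a polyadenylation cassette that was inserted into its first exon in embryonic stem cells before backcrossing to C57BL/6. Stranded total RNA sequencing was performed on 3 KO and 3 WT hearts from 500 ng of RNA each, and the age and sex of these mice were not given in the sources used here. No Cre driver, transgene or treatment was named for either group. All values below are read counts that the authors divided by a size factor per library and rounded, called scaled counts here.

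Cells assemble new chromatin during S phase, and the replication-dependent genes supply the core histones H2A, H2B, H3 and H4 and most linker histone H1 for it. Unlike other mRNAs of protein-coding genes, their main transcripts lack a poly(A) tail and end just after a stem-loop, which is bound by SLBP and cut with the help of the U7 small nuclear RNP. Most cardiomyocytes of the adult heart have left the cell cycle, and several histone genes are also known to give polyadenylated transcripts outside S phase. Libraries made from total RNA without poly(A) selection can hold both kinds of transcript.

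The labels were first checked with the targeted gene. *Trdn-as*, listed as AC157017.2 (GRCm38 chr10:33222345-33256418, minus strand), had scaled counts of 1, 0 and 1 in the KO group, against 690, 773 and 688 in the WT group (limma, adjusted p = 3.91e-15). The libraries held an estimated 2590000 to 3620000 counted reads, with the lowest depth in WT replicate 1. Histone genes took 0.0177 to 0.0211% of the summed scaled counts of a library. Heart tissue was checked with 8 cardiomyocyte genes, whose summed scaled counts were 20607 to 22005 in KO and 21471 to 26365 in WT hearts. All 8 had negative fold changes in KO hearts, with a median log2 fold change of -0.16, where 49.4% of all genes tested were below 0. An unadjusted p under 0.05 was reached by 5 of the 8, against 5.74% of all genes tested, and none was called by limma. The count of 5 was 0 to 8 over the alternatives. The part of this difference in the histone values was not tested, and in whole hearts fewer cells of a type and less RNA per cell cannot be told apart.

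The stem-loop was looked for in the annotated transcripts (GENCODE M21, GRCm38) as a 6-base stem beginning with GG, a 4-base loop beginning with TT, and the reverse complement of the stem. It was present in 31 of the 46 histone genes, 21 to 54 bases past the stop codon (median 30), against 151 of all 21951 protein-coding genes (0.688%). Only annotated bases were searched and the stem had to match exactly, so a gene without a match may still have the stem-loop. In all, 6 forms occurred, of which the commonest was held by 18 genes. Of the 10 histone genes with a mean scaled count of at least 10, 8 contained it. *Hist1h2bc* and *Hist2h2be* did not in these annotated transcripts. The sites of 5 of these genes are shown because they hold the stem-loop on which processing of these RNAs rests, with the stem and loop in capitals and 5 flanking bases on each side. They are *Hist1h1c* (chr13:23739507-23739532, plus strand), *Hist1h1e* (chr13:23621777-23621802, minus strand), *Hist2h2ac* (chr3:96220413-96220438, minus strand), *Hist1h4d* (chr13:23581945-23581970, plus strand) and *Hist2h4* (chr3:96262934-96262959, minus strand).
Hist1h1c: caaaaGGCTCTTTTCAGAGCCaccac
Hist1h1e: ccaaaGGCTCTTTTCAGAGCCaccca
Hist2h2ac: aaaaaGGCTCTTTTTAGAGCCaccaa
Hist1h4d: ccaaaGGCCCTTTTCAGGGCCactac
Hist2h4: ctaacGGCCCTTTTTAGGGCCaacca
The linker histone genes *Hist1h1c* and *Hist1h1e* share the same 16 bases, and the H4 genes have a stem that differs from theirs. In the 8 genes with a mean of at least 10, between 46 and 4884 annotated bases followed the stem-loop (median 996.5), while the 23 stem-loop genes of lower mean had a median of 155. A read count per gene does not tell which side of the stem-loop its reads came from.

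The 46 histone genes together gave summed scaled counts of 663, 611 and 656 in the KO group, against 657, 563 and 558 in the WT group. The KO mean was 643.3 ± 28.2 (SD, n = 3) and the WT mean 592.7 ± 55.8 (SD, n = 3), a log2 ratio of 0.12. The groups overlapped, since WT replicate 1 lay above 2 of the 3 KO hearts, and without that library the log2 ratio was 0.20. A few genes held most of these counts. *Hist1h1c*, *Hist1h1e* and *Hist1h2bc* accounted for 56% and the highest 5 genes for 71.4% of them.

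By family, and without correction for length, linker H1 genes took 46.5% of the histone counts, H2B 27.4%, H2A 14.5%, H4 9.01% and H3 2.64%. H2A sums were 108, 95 and 89 in the KO group, against 80, 87 and 77 in the WT group, so that all KO hearts lay above all WT hearts. The closest values were 89 and 87. KO replicate 1 was the highest H2A library, so the size of the H2A difference depends in part on that library. Among single genes tested, 9.07% showed no overlap. The H1 sums of 303, 282 and 348 in the KO group, against 306, 251 and 233 in the WT group overlapped. H2B sums also overlapped, with 175, 162 and 151 in the KO group, against 183, 165 and 181 in the WT group. Their log2 ratio of -0.12 had the opposite sign to that of H1 (0.24) and H2A (0.26). KO replicate 3 was the lowest H2B library and the highest H1 library, and WT replicate 1 was the highest WT library for H1. The sizes of the H2B and H1 ratios therefore depend on single libraries. H4 and H3 sums overlapped as well, with log2 ratios of 0.10 and -0.30. H4 had 57, 57 and 59 in the KO group, against 67, 47 and 47 in the WT group. H3 had 20, 15 and 9 in the KO group, against 21, 13 and 20 in the WT group. WT replicate 1 was the highest H4 library and KO replicate 3 the lowest H3 library, so the sizes of both ratios depend on single libraries. No test was made on these sums.

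**Figure D1:**
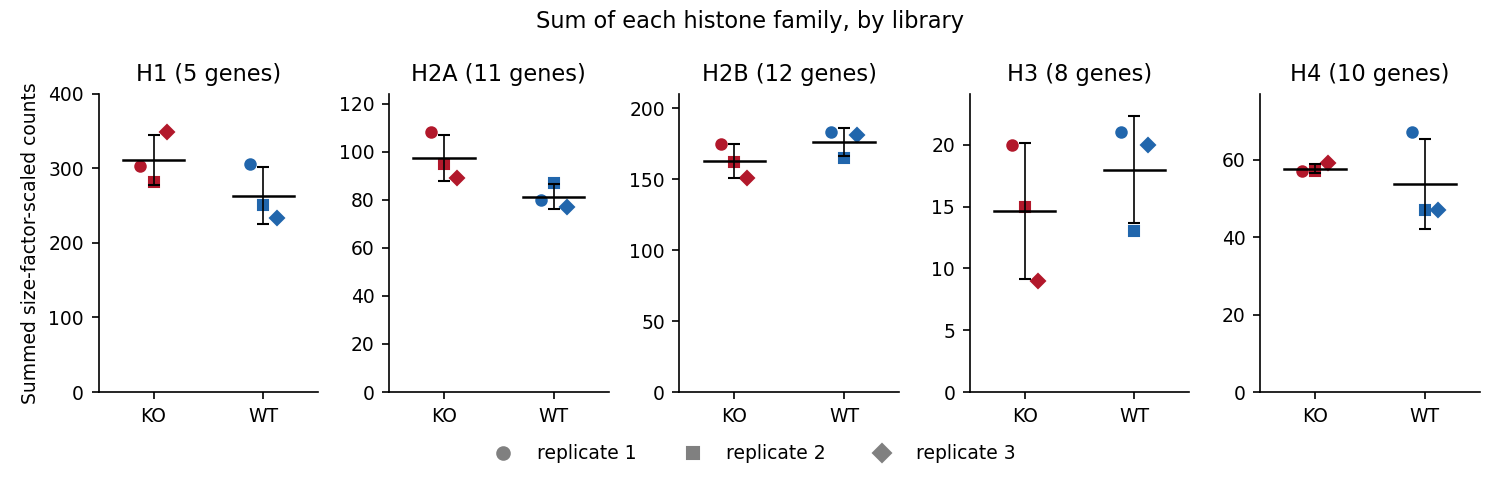
Summed size-factor-scaled counts (y axis) of the 5 histone families in each KO (red) and WT (blue) heart, with the mean as a line, the SD as an error bar and the replicate as the symbol. H2A is the family whose KO hearts (89 to 108) all lie above the WT hearts (77 to 87).

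Whether loss of *Trdn-as* transcription was accompanied by a change in single histone genes was tested with limma on log2(value + 1) in the 13753 genes with a mean scaled count of at least 10. Only 10 of the 46 histone genes passed this minimum. None of the 10 was called at an adjusted p under 0.05 (0.0291% of all genes tested were called). *Hist1h1e* was the single member at an unadjusted p under 0.05, a level reached by 5.74% of all genes tested, and limma-voom gave the same counts of 0 and 1. Of the 10 genes, 7 had a fold change above 0, against 50.6% of all genes tested. The median log2 fold change was 0.15, compared with 0.00 over all genes tested, and values ran from -0.15 to 0.58. KO and WT values did not overlap in 1 of the 10, where 9.07% of all genes tested showed no overlap.

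Among the linker histones, which bind DNA where it enters and leaves the nucleosome, *Hist1h1e* (ENSMUSG00000051627, chr13:23620629-23622558, minus strand) had scaled counts of 120, 119 and 152 in the KO group, against 109, 88 and 92 in the WT group. All KO hearts lay above all WT hearts, and KO replicate 3 was the highest library. The log2 fold change was 0.43 ± 0.13 (SE), with a 95% interval of 0.17 to 0.69, which corresponds to 1.35-fold (1.12 to 1.61). The limma test gave an unadjusted p of 0.00282 and an adjusted p of 0.713, so that *Hist1h1e* was not called. Over 14 alternative settings its log2 fold change was 0.31 to 0.52, its unadjusted p 0.00164 to 0.0341 and its adjusted p 0.222 to 0.999 in limma.

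*Hist1h1c* (chr13:23738808-23740367, plus strand), the H1 gene with the highest counts, had 147, 132 and 158 in the KO group, against 160, 134 and 117 in the WT group. The groups overlapped over their whole range, and the log2 fold change was 0.10 with an interval of -0.15 to 0.34 (limma, adjusted p = 0.95). The sign turned to -0.01 without WT replicate 3. Because both genes are counted in the same libraries, their ratio does not depend on the scaling of a library. *Hist1h1e* counts were 0.82, 0.90 and 0.96 of *Hist1h1c* counts in the KO group, against 0.68, 0.66 and 0.79 in the WT group. This ratio was chosen after the values had been seen and is not corrected for length, and no test was made on it. *Hist1h1d*, the third H1 gene tested, had 22, 16 and 19 in the KO group, against 19, 18 and 14 in the WT group, with a log2 fold change of 0.15 (interval -0.40 to 0.70). Leaving out KO replicate 1 or WT replicate 3 lowered the fold change of *Hist1h1d* to 0.05 and 0.03, and leaving out KO replicate 2 or WT replicate 1 raised it to 0.26 and 0.23.

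The other 2 H1 genes lay under the minimum. *Hist1h1b* had the highest mean of all 36 such histone genes (8.83), with 9, 8 and 9 in the KO group, against 14, 6 and 7 in the WT group. *Hist1h1a* had 5, 7 and 10 in the KO group, against 4, 5 and 3 in the WT group, which overlapped at 5.

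The transcript of *Hist1h1e* overlaps on the same strand with exons of *Hist1h2be* and of Gm11398, and the authors left out reads that fell on several genes. *Hist1h2be*, an H2B gene named here after its values were seen, had 5, 5 and 3 in the KO group, against 6, 7 and 7 in the WT group, so that its groups did not overlap in the opposite direction. Of the 75-base windows in *Hist1h1e* transcripts, 71.6% occurred in no other annotated gene. For *Hist1h1c* this was 93.3%. How shared exons bear on the *Hist1h1e* difference was not tested.

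**Figure D2:**
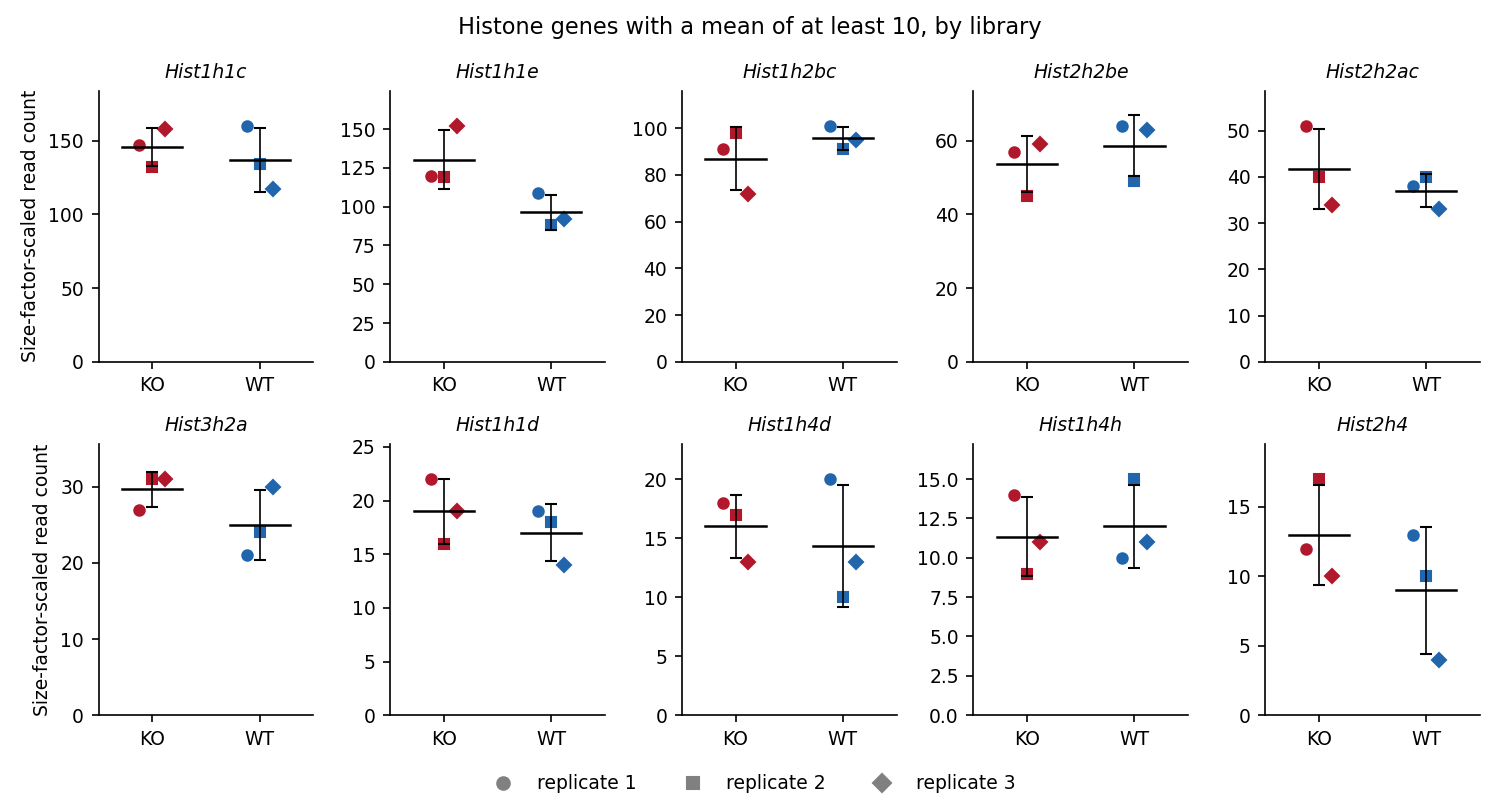
Size-factor-scaled read counts (y axis) of the 10 histone genes with a mean of at least 10 in each KO (red) and WT (blue) heart, with the mean as a line, the SD as an error bar and the replicate as the symbol. Only in *Hist1h1e* do the 3 KO hearts (119 to 152) all lie above the 3 WT hearts (88 to 109).

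The H2B genes, which encode the partner of H2A in the nucleosome, gave 2 tested members, both with negative fold changes that did not pass the test. *Hist1h2bc* had 91, 98 and 72 in the KO group, against 101, 91 and 95 in the WT group. The lowest value was that of KO replicate 3, the other libraries lay close together, and the groups overlapped. Its log2 fold change was -0.15 with an interval of -0.42 to 0.13 (limma, adjusted p = 0.922), which leaving out KO replicate 3 brought to -0.02 and leaving out KO replicate 2 to -0.24. *Hist2h2be* had 57, 45 and 59 in the KO group, against 64, 49 and 63 in the WT group, with a log2 fold change of -0.13 (interval -0.48 to 0.22), which leaving out KO replicate 2 brought to -0.01 and leaving out WT replicate 2 to -0.25.

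The H2A genes also gave 2 tested members. *Hist3h2a* had 27, 31 and 31 in the KO group, against 21, 24 and 30 in the WT group, with WT replicate 3 inside the KO range. Its log2 fold change was 0.25 with an interval of -0.21 to 0.71 (limma, adjusted p = 0.921), and it was 0.14 without WT replicate 1 and 0.38 without WT replicate 3. Its exon overlaps an exon of *Trim17* on the same strand. *Hist2h2ac* had 51, 40 and 34 in the KO group, against 38, 40 and 33 in the WT group, and only KO replicate 1 stood above the rest (log2 fold change 0.15, interval -0.25 to 0.56). Without it the log2 fold change was -0.00.

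The H4 genes, which encode the most conserved core histone, gave 3 tested members with low counts and wide intervals. *Hist2h4* had the largest fold change of the 10, with 12, 17 and 10 in the KO group, against 13, 10 and 4 in the WT group. The groups overlapped, and WT replicate 3 was the lowest library. Without it the log2 fold change was 0.14, under those of *Hist1h1e* and *Hist3h2a* in the same fit (0.40 and 0.38). The rank of *Hist2h4* therefore rests on WT replicate 3. *Hist2h4* stayed the largest without KO replicate 1 (0.62) or 3 (0.74), or WT replicate 1 (0.89) or 2 (0.71). Without KO replicate 2 it was not among the genes tested. With all libraries kept, the fold change on the log2 scale was 0.58 ± 0.39 (SE; limma, unadjusted p = 0.152, adjusted p = 0.894). The interval of -0.23 to 1.39 corresponds to 0.85-fold to 2.63-fold, so neither a decrease nor an increase of this size could be told from no change at this depth. *Hist1h4d* had 18, 17 and 13 in the KO group, against 20, 10 and 13 in the WT group (log2 fold change 0.19, interval -0.45 to 0.83), and *Hist1h4h* had 14, 9 and 11 in the KO group, against 10, 15 and 11 in the WT group (log2 fold change -0.08, interval -0.75 to 0.59). Without WT replicate 1 *Hist1h4d* had a log2 fold change of 0.44, and its sign turned without WT replicate 2. The sign of *Hist1h4h* turned without KO replicate 2 or WT replicate 2.

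**Figure D3:**
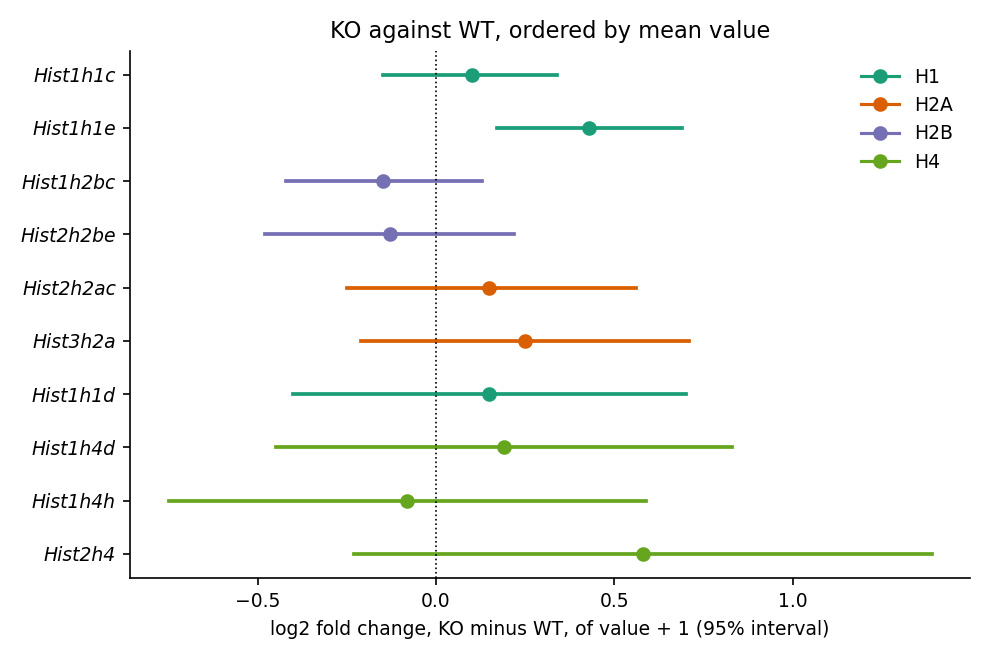
Log2 fold change of KO over WT hearts (x axis, points) with the 95% interval from limma (lines) for the 10 histone genes tested, ordered from the highest mean at the top and coloured by family. The interval of *Hist1h1e* (0.17 to 0.69) is the only 1 of the 10 that does not include 0.

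None of the 8 H3 genes reached the minimum. *Hist1h3d* had the highest mean of them (4.67), and their sum was 20, 15 and 9 in the KO group, against 21, 13 and 20 in the WT group. The other genes under the minimum comprised 9 H2A genes with means from 0.5 to 7.5, 10 H2B genes with means from 0.333 to 5.5 and 7 H4 genes with means from 0.833 to 5.5. No value of any of the 36 exceeded 14. Of all 46 histone genes, 29 had a count above 0 in every library, 17 were at 0 in at least 1 library, and 19 had an estimated 3 reads or fewer in every library. Together the 36 genes gave 104, 87 and 97 in the KO group, against 102, 84 and 86 in the WT group, which overlapped.

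KO and WT values did not overlap in 4 of the 46 histone genes (8.7%), against 7.55% of all 21776 genes, and 3 of the 4 were higher in KO hearts. Besides *Hist1h1e* and *Hist1h2be* these were *Hist1h2ak* and *Hist1h4a*, named here because they make up this count. *Hist1h2ak*, an H2A gene, had 10, 10 and 9 in the KO group, against 8, 4 and 4 in the WT group. *Hist1h4a*, an H4 gene, had 2, 1 and 2 in KO hearts and 0 in all WT hearts, which is at or under a floor of 3 reads in both groups, so no fold is given. When limma was fitted without the minimum, *Hist1h4a* reached an unadjusted p of 0.0303 (adjusted p = 0.915) and the 46 genes had a median log2 fold change of 0.00, with 22 above 0, 20 below 0 and 4 equal to 0.

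Histone genes are near copies of each other, and the authors removed reads that map to several places. The share of 75-base windows, the length of the reads, found in no other annotated gene was therefore computed for each gene. It was 57.6 to 100% in the 10 tested genes (median 86.9%) and 9.97 to 100% in the other 36 (median 63.2%), and 12 of the 46 genes were under 50%. Medians by family were 98.5% for H1, 76.5% for H4, 68.2% for H2B, 65.6% for H2A and 47.6% for H3. H3, the family with the lowest sum, thus also had the lowest share of unique windows. Genes with many unique windows could also have low counts, as did *Hist1h1a*, with 100% unique windows and a mean of 5.67.

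**Figure D4:**
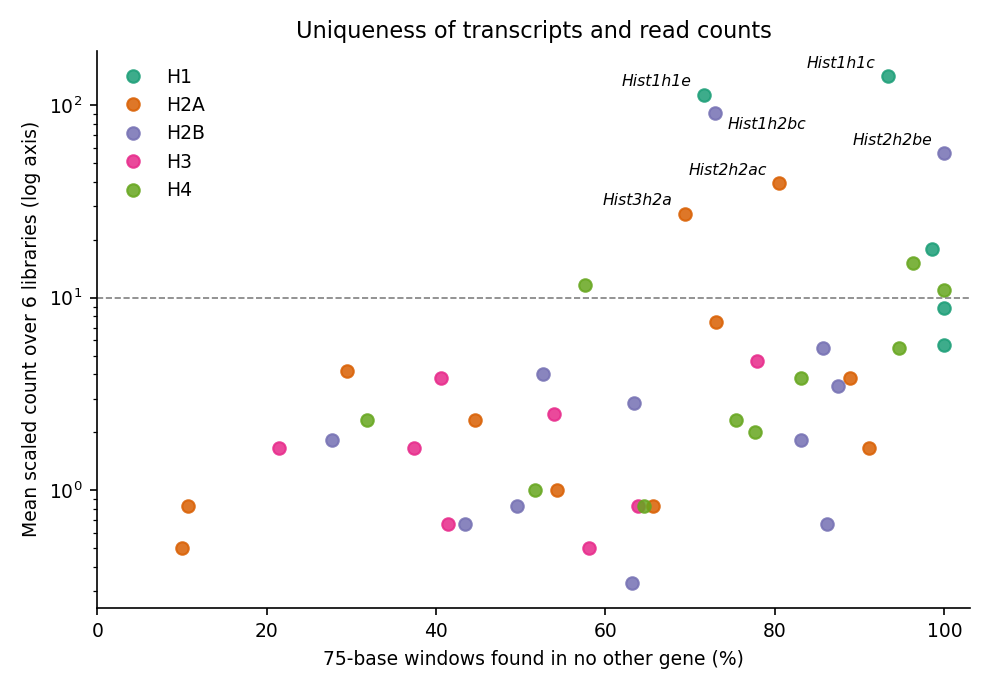
Mean scaled count over 6 libraries (y axis, log axis) against the share of 75-base windows found in no other annotated gene (x axis, %) for the 46 histone genes, coloured by family. The dashed line marks the minimum mean of 10, and no gene under 57.6% lies above it.

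For levels between genes, scaled counts were expressed per 1000 unique windows. On this scale *Hist1h2bc* (115.8), *Hist2h2ac* (109.6) and *Hist1h1c* (101.9) were highest over the 6 libraries. Their ranges over libraries, 91.3 to 128.0, 91.9 to 142.1 and 84.4 to 115.4, overlapped, as did that of *Hist1h1e*, which followed with a level of 85.3 (range 66.2 to 114.4), so the order of these 4 genes is not fixed. *Hist1h4h* had a level of 51.2 (range 39.5 to 65.8) and *Hist1h2af*, on few counts, of 43.4 (range 20.8 to 62.5), and these ranges overlapped as well. *Hist2h2be*, the fourth gene by counts, had a level of 22.1, with an annotated transcript of 2620 bases. *Hist1h1d* came to 2.49, with 4884 of its annotated bases past the stem-loop. Levels of *Hist1h1b* and *Hist1h1a* were 13.2 and 8.50.

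Many H2A and H2B genes lie head to head and share the DNA between their starts. Of the histone genes in the table, 5 head-to-head pairs had starts less than 1000 bases apart, 4 of an H2A and an H2B gene and 1 of an H2B and an H3 gene (*Hist1h2bh* and *Hist1h3f*). In the pair *Hist2h2ac* and *Hist2h2be*, with 238 bases between the annotated starts, the level of *Hist2h2ac* was above that of *Hist2h2be* in all 6 libraries (91.9 to 142.1 against 17.7 to 25.1). On scaled counts without this scaling the order turned, with *Hist2h2be* above *Hist2h2ac* in all 6 libraries (45 to 64 against 33 to 51), so the order rests on the annotated length of 2620 bases of *Hist2h2be*. In the pair *Hist1h2ac* and *Hist1h2bc*, with 250 bases between starts, *Hist1h2bc* had levels of 91.3 to 128.0 and *Hist1h2ac* of 0.934 to 2.80, and scaled counts had the same order (72 to 101 against 2 to 6). Uniqueness of the windows was 88.9% for *Hist1h2ac* and 72.9% for *Hist1h2bc*, so the gene with the lower level had the larger unique share.

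**Figure D5:**
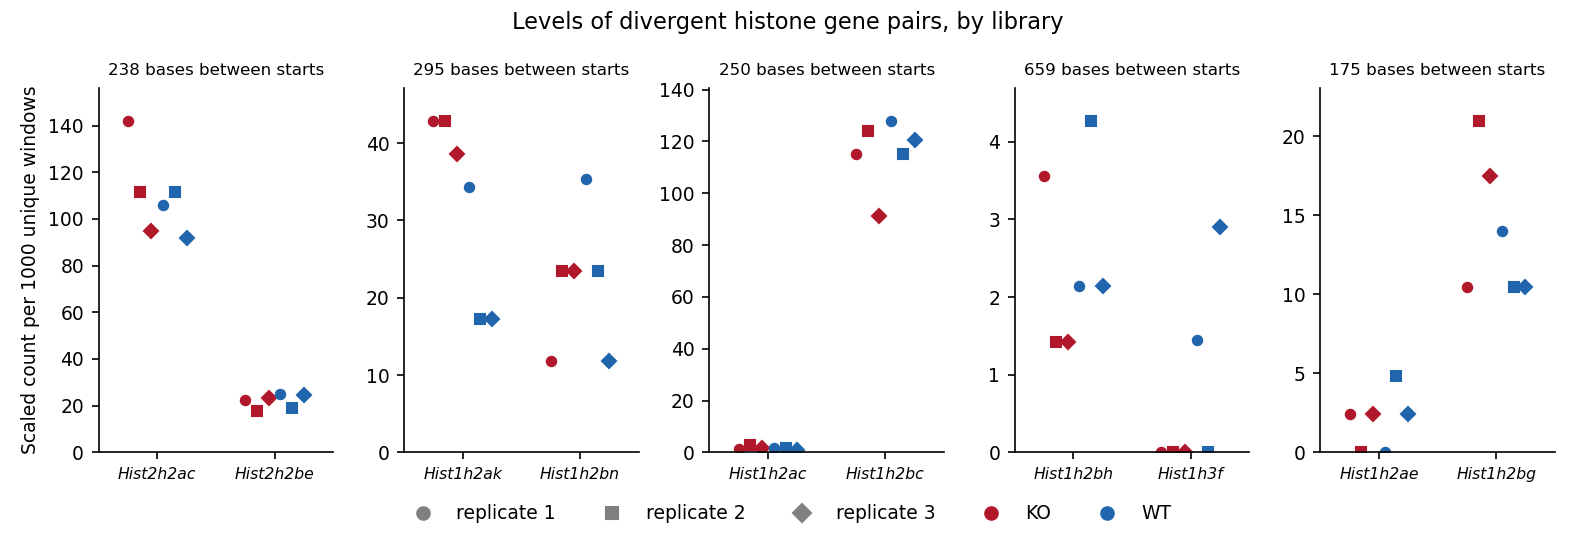
Scaled counts per 1000 unique windows (y axis) of both genes of each head-to-head pair in every KO (red) and WT (blue) heart, with the replicate as the symbol and a separate axis per pair. On this scale *Hist2h2ac* lies above *Hist2h2be* in all 6 libraries, whereas on scaled counts *Hist2h2be* is the higher, and *Hist1h2bc* lies above *Hist1h2ac* on both.

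The promoters of these 2 pairs are shown since the members of each pair share them. They are RefSeq promoter windows (GRCm38.p6) of 300 bases on the minus strand, read in the direction of the H2A gene, for *Hist2h2ac* (chr3:96220831-96221130) and *Hist1h2ac* (chr13:23683910-23684209). Each reaches past the annotated start of the H2B partner. Capitals mark, on either strand, the octamer ATTTGCAT, the letters CCAAT and the letters TATAAA.
Hist2h2ac: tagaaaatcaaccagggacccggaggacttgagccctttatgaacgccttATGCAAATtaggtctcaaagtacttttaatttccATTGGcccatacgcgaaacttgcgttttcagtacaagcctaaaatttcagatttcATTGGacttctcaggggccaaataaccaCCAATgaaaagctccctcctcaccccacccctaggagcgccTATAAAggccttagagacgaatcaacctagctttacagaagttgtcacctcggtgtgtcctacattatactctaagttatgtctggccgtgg
Hist1h2ac: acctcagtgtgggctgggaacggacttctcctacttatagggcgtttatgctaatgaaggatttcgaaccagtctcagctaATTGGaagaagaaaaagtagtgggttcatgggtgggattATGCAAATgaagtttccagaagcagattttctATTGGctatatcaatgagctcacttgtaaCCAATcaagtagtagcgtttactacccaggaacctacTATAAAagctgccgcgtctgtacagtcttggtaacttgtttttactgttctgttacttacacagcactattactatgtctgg
Both windows held all 3 motifs. RefSeq promoters were matched for 41 of the 46 histone genes. The octamer, searched on both strands, occurred in 6 of 10 H2A and 4 of 10 H2B promoters, in no H1, H3 or H4 promoter and in 1.74% of all 32851 promoters of this length. CCAAT occurred in 85.4% of histone promoters against 37.4% of all, and in H4 promoters only in 3 of 9. TATAAA was held by 58.5% against 13.6%. The letters AAACACA, searched because they are known from H1 promoters, occurred in 4 of 5 H1 promoters against 7.18% of all. They were also in 1 of 10 H2A and 1 of 10 H2B promoters, and in no H3 or H4 promoter. These are matches of letters and not measured binding sites.

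Factors that act on histone pre-mRNA were compared as a list of 21 genes, of which 20 were in the table and 17 were tested. None was called by limma, and the median log2 fold change was 0.01. An unadjusted p under 0.05 was reached by 1 of the 17, against 5.74% of all genes tested. KO and WT values did not overlap in 2 of the 17, against 9.07% of all genes tested. These were *Casp8ap2* and *Snrpb*, a core protein of small nuclear RNPs. *Snrpb* had 162, 161 and 162 in the KO group, against 170, 170 and 164 in the WT group (log2 fold change -0.05, interval -0.24 to 0.13). *Slbp*, which binds the stem-loop, had 75, 69 and 77 in the KO group, against 69, 54 and 63 in the WT group. The groups touched at 69, and the log2 fold change was 0.25 (interval -0.05 to 0.55; limma, unadjusted p = 0.0983, adjusted p = 0.879). For *Slbp* it was 0.16 without WT replicate 2 and 0.33 without WT replicate 1. *Casp8ap2*, which takes part in histone transcription and processing, had 321, 325 and 315 in the KO group, against 238, 297 and 305 in the WT group. All KO hearts lay above the WT hearts, WT replicate 1 was the lowest, and the log2 fold change was 0.20 (limma, unadjusted p = 0.0332, adjusted p = 0.851). Without WT replicate 1 the log2 fold change of *Casp8ap2* was 0.09 (limma, unadjusted p = 0.261), and its unadjusted p was 0.0523 to 0.0751 when any of the KO libraries was left out. *Sympk*, the scaffold of the cleavage complex and the gene of highest mean in the list, had a log2 fold change of -0.02 (interval -0.17 to 0.14), whose sign turned with total scaling and with limma-voom.

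Of 9 genes for decay and translation of histone mRNA, 8 were tested, none was called by limma and 2 reached an unadjusted p under 0.05, against 5.74% of all genes tested. KO and WT values did not overlap in 3 of the 8, against 9.07% of all genes tested, and of these 3 *Eri1* and *Dis3l2* were higher and *Mif4gd*, a translation factor for histone mRNA, lower in KO hearts (95, 87 and 93 in the KO group, against 97, 106 and 99 in the WT group, log2 fold change -0.13). Over the alternatives 0 to 2 genes of the list reached an unadjusted p under 0.05, with 1 under the replicate block. *Eri1*, a 3′ exonuclease that trims the stem-loop, had 120, 122 and 121 in the KO group, against 88, 96 and 110 in the WT group. The groups did not overlap, and the log2 fold change was 0.31 (interval 0.07 to 0.55; limma, unadjusted p = 0.0151, adjusted p = 0.807). Without WT replicate 1 the fold change of *Eri1* was 0.23 (limma, unadjusted p = 0.0697). *Dis3l2*, an exonuclease for uridylated RNA, had 137, 147 and 127 in the KO group, against 119, 109 and 121 in the WT group, with a log2 fold change of 0.23 (limma, unadjusted p = 0.0403, adjusted p = 0.851). The unadjusted p of *Dis3l2* in limma reached 0.0505 to 0.143 without KO replicate 1 or 2 or WT replicate 1 or 2, and was 0.0518 with the replicate block. *Zcchc6*, a uridylyltransferase with the highest mean of the list, had a log2 fold change of 0.05.

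Of 11 genes for histone variants that are also made outside S phase, 10 were tested and none was called by limma. Of the 10, 3 had a fold change above 0 and 7 below, where 49.4% of all genes tested were below 0. The median log2 fold change was -0.03, and 1 gene reached an unadjusted p under 0.05, against 5.74% of all genes tested. KO and WT values did not overlap in 2 of the 10, *H1f0* and *H2afv*, against 9.07% of all genes tested. *H2afv*, an H2A.Z variant, had 112, 119 and 112 in the KO group, against 133, 129 and 122 in the WT group, so that all KO hearts lay under all WT hearts (log2 fold change -0.16, interval -0.38 to 0.06). *H1f0*, the linker histone of differentiated cells, had 290, 287 and 295 in the KO group, against 270, 272 and 232 in the WT group. All KO hearts lay above all WT hearts, with a log2 fold change of 0.18 (interval 0.01 to 0.34; limma, unadjusted p = 0.0436, adjusted p = 0.851). For *H1f0* it was 0.10 (limma, unadjusted p = 0.229) without WT replicate 3, and the unadjusted p was 0.0613 to 0.104 when any of the KO libraries was left out and 0.094 without the trend. Its level per 1000 unique windows was 138.5 over the 6 libraries, with a range of 117.1 to 148.9, which lies above the range of *Hist1h1c* (84.4 to 115.4). The table gives other outer coordinates for *H1f0* than the annotation used for this level. The closest values of the 2 genes were 117.1 and 115.4, and whether their ranges stay apart with the other coordinates was not tested. *H2afx*, a variant whose transcripts also contain the stem-loop, had 22, 10 and 18 in the KO group, against 16, 24 and 21 in the WT group, with a log2 fold change of -0.32 (interval -0.94 to 0.30). It was -0.01 without KO replicate 2, the lowest library, and -0.54 without KO replicate 1. *H3f3b*, which encodes the replacement histone H3.3, had a level of 76.9, and *H3f3a*, which encodes the same protein, of 19.4.

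Histone chaperones, which carry histones to DNA, gave 12 tested genes of 14. An unadjusted p under 0.05 was reached by 0 of the 12 (0 to 1 over the alternatives), against 5.74% of all genes tested. *Atrx*, with the highest mean, had a log2 fold change of 0.04, and *Chaf1a*, a subunit of the assembly factor for replicated DNA, had 0.25 (interval -0.27 to 0.77), which turned to -0.10 without WT replicate 1.

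Genes of S phase and proliferation were compared because replication-dependent histone mRNA is made in dividing cells. Of 33 genes 20 were tested, none was called by limma and 2 reached an unadjusted p under 0.05 (0 to 4 over the alternatives), against 5.74% of all genes tested. Of the 20 tested, 14 had a fold change above 0 and 6 below, where 50.6% of all genes tested were above 0. The median log2 fold change was 0.11. Summed scaled counts were 1373 to 1550 in KO and 1337 to 1505 in WT hearts, which overlapped. *Mki67*, a marker of cycling cells, had 297, 220 and 306 in the KO group, against 250, 305 and 225 in the WT group (log2 fold change 0.07). Leaving out KO or WT replicate 3 turned the sign of *Mki67* (-0.01 and -0.02), and leaving out KO or WT replicate 2 raised its fold change to 0.22 and 0.19. *Gmnn*, which limits DNA replication to a single round, had 64, 62 and 57 in the KO group, against 70, 87 and 77 in the WT group, with a log2 fold change of -0.35 (limma, unadjusted p = 0.0243, adjusted p = 0.851). *Mcm7*, a subunit of the replicative helicase, had 67, 60 and 54 in the KO group, against 72, 76 and 75 in the WT group (log2 fold change -0.30; limma, unadjusted p = 0.0464, adjusted p = 0.851). In both genes all KO hearts lay under all WT hearts. With *Mcm3* they made up the 3 of 20 genes without overlap, against 9.07% of all genes tested. The unadjusted p in limma rose to 0.0804 and 0.123 for *Gmnn* without KO replicate 3 or WT replicate 2, and to 0.0567 to 0.171 for *Mcm7* without any 1 library other than KO replicate 1. For *Mcm7* it was also 0.0515 to 0.0656 with total scaling, limma-voom, a minimum of 10 in every sample or the replicate block, and 5 of 14 alternatives kept it under 0.05. *Mcm3*, another subunit of the helicase, did not overlap in the opposite direction, with 56, 53 and 61 in the KO group, against 43, 50 and 42 in the WT group (log2 fold change 0.33; limma, unadjusted p = 0.0563, adjusted p = 0.851). *Prim1*, a primase subunit with low counts, had a log2 fold change of -0.41 with an interval of -1.08 to 0.26, which was -0.27 without WT replicate 1 and -0.59 without WT replicate 2.

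Other RNAs that end without a poly(A) tail were listed to see how such RNAs behaved in these libraries. Of 10 genes 5 were tested, all 5 had fold changes below 0 with a median of -0.11, where 49.4% of all genes tested were below 0. None was called by limma and 1 reached an unadjusted p under 0.05 (0 to 2 over the alternatives), against 5.74% of all genes tested. *Malat1*, a nuclear RNA with the highest counts of the list, had 4677, 4912 and 5046 in the KO group, against 6248, 5450 and 4847 in the WT group. The groups overlapped through WT replicate 3, and the log2 fold change was -0.17 (limma, unadjusted p = 0.0254, adjusted p = 0.851). For *Malat1* it was -0.08 (limma, unadjusted p = 0.186) without WT replicate 1 and -0.26 (unadjusted p = 0.00018) without WT replicate 3. *Rmrp*, the RNA of a ribonuclease, had 73, 72 and 62 in the KO group, against 86, 74 and 79 in the WT group. It was the 1 of the 5 genes whose groups did not overlap, against 9.07% of all genes tested. Its log2 fold change was -0.21 (interval -0.49 to 0.08), which was -0.13 without KO replicate 3.

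No marker of the other cell types was called by limma at an adjusted p under 0.05. All 7 endothelial genes had fold changes above 0 (median 0.03, up to 0.34), against 50.6% of all genes tested, and 1 of the 7 was at an unadjusted p under 0.05, against 5.74%. All 6 red blood cell genes tested had fold changes below 0 (median -0.26), against 49.4% of all genes tested. Of 7 fibroblast genes 4 were above and 3 below 0, and of 6 leukocyte genes 3 were above and 3 below. An unadjusted p under 0.05 was reached by 0 red blood cell, 0 fibroblast and 0 leukocyte genes. Over the alternatives these counts were 0 to 3, 0 to 2 and 0 to 1, and the endothelial count was 1 to 2. The red blood cell count of 3 came without WT replicate 2. Endothelial genes summed to 4523 to 5235 in KO and 4563 to 4936 in WT hearts, fibroblast genes to 3417 to 3927 and 3577 to 3927, leukocyte genes to 829 to 1119 and 906 to 1000, and red blood cell genes to 184 to 356 and 165 to 488. These ranges overlapped for every list, and the part of these cell types in the histone values was not tested.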

How the data were processed

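Stranded total RNA libraries (SMARTer, NextSeq500, 75-base single-end reads) of 3 KO and 3 WT hearts were used. According to the study's methods, reads were trimmed with Trimmomatic 0.39 and aligned to GRCm38 with STAR 2.6.1d, duplicate (Picard 2.21.1), multi-mapping, ribosomal and mitochondrial reads were removed, and exons were counted by strand with featureCounts 1.6.5. The deposited values are scores, namely counts that the authors divided by DESeq2 1.18.1 size factors and rounded to whole numbers. They are therefore not raw counts, and a count model was not fitted. The depth per library was estimated from the whole numbers that each library's rounded values skip or repeat.

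From these values log2(value + 1) was fitted with limma 3.58.1 (R 4.3.3; trend, two-sided, 4 residual and 15.4 prior degrees of freedom) in genes with a mean of at least 10, with Benjamini-Hochberg adjustment over all 13753 genes and a threshold of 0.05. Scripts for the fit were tested on simulated data. Sums and levels used Python 3.11.15. Sequences came from GENCODE M21 and RefSeq GRCm38.p6; 24 of 70 annotated genes with such symbols, and *Rnu7*, were not analysed here. Nothing in the labels says that replicates were separate litters or preparations, so p-values measure the spread between these samples.

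The histone genes and gene lists were chosen with earlier results of these data known. Named genes were every histone gene over the minimum and, in each list, the gene of highest mean, the gene of largest fold change and those at an unadjusted p under 0.05, with *Slbp*. Other genes, such as low-count histone genes, list genes whose groups do not overlap, *H3f3a*, *H3f3b*, *Hist1h2af* and the pair partners, were named after their values had been seen. For cell type markers, sums are given. Alternatives were other scalings, limma-voom, no trend, other filters, a pseudocount of 0.1, a replicate block and leaving out each library.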

Additional observations from a re-analysis of the deposited data

How the results depend on the processing

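No histone gene was called under any alternative run (other scalings, limma-voom, no trend, other filters, pseudocount 0.1, replicate block, threshold 0.1, each library left out). *Hist1h1e* kept an unadjusted p under 0.05 in all 14, and the count of histone genes at that level was 1 except without the filter, where it was 2 (*Hist1h4a* in addition). The count of processing factors at that level fell from 1 to 0 without the trend and ranged from 0 to 1 over the libraries left out, being 0 when any of the KO replicates was left out. Without WT replicate 1 the gene counted was *Slbp* (0.33, unadjusted p = 0.0488 in limma) and not *Casp8ap2*. The log2 ratio of the summed histone genes, 0.12, was 0.12 and 0.14 with other scalings and 0.08 to 0.20 with a library left out. Of 137 alternative fold changes of the 10 histone genes, 132 kept their sign. The others were -0.00 for *Hist2h2ac* without KO replicate 1, -0.01 for *Hist1h1c* without WT replicate 3, 0.06 and 0.08 for *Hist1h4h* without KO or WT replicate 2, and -0.02 for *Hist1h4d* without WT replicate 2. Among the other named genes, *Sympk* turned to 0.01 (total scaling, limma-voom, without KO replicate 3) and 0.04 (without WT replicate 2), *Chaf1a* to -0.10 without WT replicate 1, and *Mki67* to -0.01 and -0.02 without KO or WT replicate 3. With a library left out, fold changes ran from -0.01 to 0.21 for *Hist1h1c*, from -0.00 to 0.29 for *Hist2h2ac*, from -0.23 to 0.08 for *Hist1h4h*, from -0.02 to 0.44 for *Hist1h4d*, from -0.09 to 0.04 for *Sympk*, from -0.10 to 0.50 for *Chaf1a* and from -0.02 to 0.22 for *Mki67*. The cause of these turns was not tested. Same-numbered KO and WT libraries had correlations of 0.05, -0.07 and -0.03 in their deviations, so no effect shared by replicate number was seen. Such correlations cannot tell whether same-numbered hearts came from 1 litter or preparation, and the labels do not say. With the replicate block, 0 histone genes were called, 1 reached an unadjusted p under 0.05, and *Hist1h1e* had a log2 fold change of 0.43. *Dis3l2* and *Mcm7* no longer had an unadjusted p under 0.05 with it (0.0518 and 0.0557). Over all genes tested, the median fold change on the log2 scale was 0.02 with total scaling. The 36 histone genes under the minimum had few counts, and the parts of depth and of reads removed for mapping to several copies were not tested.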
